A study of Solanum lycopersicum with 12 samples.

Results

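Of the 43603 probes on the tomato array, 8 were lower at 24 h than at 6 h in control, MBI600 CFCF and flg22 seedlings alike while neither treatment moved them by as much. They were chosen by their own values. The mean log2 green signal at 6 h had to exceed that at 24 h by at least 1 in each of the 3 treatments, and every difference of a treatment from the control at the same time had to be below 1 in size. Every 6 h array also had to read the probe well above background. The 8 probes carry 8 different sequence names, and 2 of them matched a gene of the RefSeq gene table: RNALE, which encodes the ribonuclease RNase LE, and LOC101246812, for which no role is given here. The other 6 are expressed sequences that the tables used here do not pair with a gene, so they are called by their probe names. Since time and treatment differences chose the probes, their sizes are descriptions and are given with no test.

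The seedlings were tomato plants (Solanum lycopersicum) 15 days old, measured whole, and each array was labelled from a pool of 2 seedlings, with 2 biological replicates for each of 6 groups. Seedlings had been moved from agar to liquid MS medium 3 h before the treatments. The medium then received flg22, a peptide of bacterial flagellin, at 1 µM, or MBI600 CFCF, a filtrate of Bacillus amyloliquefaciens MBI600 culture without its cells, at 20% of the volume, and plants were collected 6 or 24 h later. For the control the labels give water, whereas the methods describe LB with MS medium. The collections lay 18 h apart, and neither the labels nor the methods name the hour of day, so time after treatment, time since the transfer and hour of day cannot be told apart. Neither source gives the RNA hybridized in the red (Cy5) channel, and the seedling RNA was read in the green (Cy3) channel.

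RNA of whole seedlings mixes all organs, so fewer cells of a type and less RNA per cell cannot be told apart. All 52 probes of the green tissue markers (CAB and RBCS genes, which encode light-harvesting proteins and the small subunit of Rubisco) were well above background on every array, as were 5 of 10 probes of the root markers. The mean log2 signal over the green tissue probes was 13.44 to 14.39 on the 6 h arrays and 14.26 to 15.06 on the 24 h arrays. Over all treatments the times overlapped, but within each treatment this mean was higher at 24 h, opposite to the 8 probes. The probes of the list did not move alike, and 10 of 52 were at least 1 higher at 24 h in all 3 treatments. The CAB12 probe differed, 6 h minus 24 h, by -2.60, -2.12 and -2.64 in control, MBI600 CFCF and flg22. RBCS probes went both ways, as in A_96_P083959 of rbcS1 (0.31, 0.31 and 0.21) and A_96_P148641 of RBCS4 (-1.21, -0.21 and -0.54). The mean over the root marker probes was 7.002 to 7.65 at 6 h and 7.03 to 7.60 at 24 h. These ranges overlapped over all treatments and within control and MBI600 CFCF, but with flg22 the mean was 7.27 to 7.38 at 6 h and 7.08 to 7.11 at 24 h, lower at 24 h as the 8 probes were, and 2 of the 10 probes were at least 1 lower. The part of organ composition in the time differences was not tested. The arrays lay on 3 slides of 4, and time was not spread evenly: slide 1 held 1 array of 6 h and 3 of 24 h, slide 2 held 2 of each, and slide 3 held 3 of 6 h and 1 of 24 h. Each treatment had a 6 h and a 24 h array on a shared slide, which gave a within-slide difference for every probe. The part of the slide in the rest of each difference was not tested.

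RNALE belongs to the S-like ribonucleases of the T2 family. These plant enzymes are relatives of the S-RNases of self-incompatibility but take no part in pollen rejection, and they degrade RNA outside the cell or in the vacuole. In tomato, RNase LE is an extracellular enzyme known for its induction by phosphate starvation and by wounding, and RNase LX is its intracellular relative.

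The threshold met few probes. A fall of at least 1 on the log2 scale was seen in 293 of the 43603 probes in control, which is 0.672%, in 801 with MBI600 CFCF (1.84%) and in 534 with flg22 (1.22%). These counts depended on the processing. In the ratio of green to red they were 306, 441 and 525, so flg22 was highest there, whereas MBI600 CFCF was highest with the other signals, backgrounds and scalings. In the deposited values such a fall was seen in all 3 treatments in 51 probes, or 0.117%, against 59 probes that were at least 1 higher at 24 h in all 3. Of the 51, 43 differed by 1 or more between a treatment and the control, which left the 8. All 8 were well above background on all 12 arrays, and 0 were saturated.

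**Figure D1:**
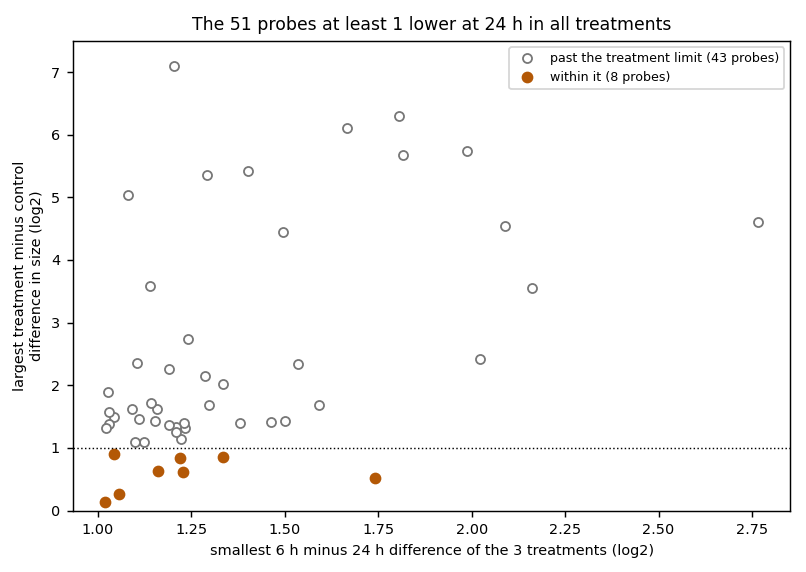
The 51 probes that were at least 1 lower at 24 h in all 3 treatments, by the smallest of their 3 time differences (x axis, log2) and the largest of their 4 treatment minus control differences in size (y axis, log2). The dotted line is the limit of 1; the 8 filled points below it are the probes described here and the 43 open points lie above it.

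Over the 8 probes the median difference, 6 h minus 24 h, was 1.43 in control, 1.34 with MBI600 CFCF and 1.25 with flg22 on the log2 scale, which correspond to 2.70-fold, 2.53-fold and 2.39-fold. Over all 43603 probes these medians were 0.00, 0.00 and -0.01. The difference of the 8 from the rest is what the rule selected. The offset of 50 added to every spot in the deposited values pulls differences of dim probes towards 0, so the folds of dim probes are understated.

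The RNALE probe (A_96_P000196) read 9.21 and 9.06 on the control arrays at 6 h against 7.36 and 7.77 at 24 h. With MBI600 CFCF it read 8.59 and 11.38 at 6 h against 7.56 and 7.95 at 24 h. With flg22 it read 8.39 and 9.03 at 6 h against 6.93 and 7.83 at 24 h. Every 6 h array was above every 24 h array, with 0.45 between the lowest of the former and the highest of the latter, but the 2 MBI600 CFCF arrays at 6 h lay far apart (SD 1.98, n = 2). The time differences were 1.57 in control, 2.23 with MBI600 CFCF and 1.33 with flg22 (SE 0.77 each). The replicates of RNALE spread more than those of the other 7 probes, with a within-group SD of 0.88. Without the higher of these arrays the MBI600 CFCF difference was 0.84, below the threshold, and without the lower one RNALE was 2.25 above the control at 6 h. Without replicate 1 of flg22 at 24 h its flg22 difference was 0.88.

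On the shared slides RNALE was lower at 24 h as well, by 1.45 in control on slide 2, by 3.44 with MBI600 CFCF on slide 3 and by 1.47 with flg22 on slide 1. The MBI600 CFCF value rests on the array that read 11.38. With slide as a term in the fit, the differences were 1.07, 2.15 and 0.92.

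Other S-like ribonuclease genes on the array had smaller time differences, which were not tested against that of RNALE. The gene of RNase LX, rnalx, stands next to RNALE in the RefSeq gene table. Its 2 probes differed by 0.09 and 0.01 in control, by 0.16 and 0.17 with MBI600 CFCF and by 0.29 and -0.00 with flg22. The probe with the second of each of these values was well above background on 9 of the 12 arrays. Both probes were dim, reading 6.93 to 7.79 and 5.96 to 6.40. The offset understates a difference there, so their sizes cannot be compared with that of RNALE. The 3 probes of RNaseLER, a further gene of the family by its name, ranged from -0.18 to 0.48 over the treatments. RNALE, with 1 probe, was thus the gene of these 3 that met the rule.

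LOC101246812 was measured by 10 probes, of which 1 met the rule. That probe (A_96_P091149) read 8.93 and 11.17 in control at 6 h against 8.61 and 7.87 at 24 h. The MBI600 CFCF arrays gave 9.64 and 10.43 at 6 h against 8.82 and 9.17 at 24 h, and with flg22 10.42 and 10.38 against 9.58 and 8.69. The times overlapped, since the lower control array at 6 h was 0.65 below the highest 24 h array, which was replicate 1 of flg22; within each treatment they did not overlap. The differences were 1.82, 1.04 and 1.26 (SE 0.67), and 1.06, 1.27 and 0.84 within slides. With slide as a term, the flg22 difference was 0.60.

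The probe was kept under the rule in 6 of the 12 fits that left out 1 array. Without replicate 2 of control at 6 h the control difference was 0.69, and without replicate 2 of MBI600 CFCF at 6 h its MBI600 CFCF difference was 0.64. Leaving out replicate 1 of MBI600 CFCF at 24 h or replicate 2 of flg22 at 24 h gave a smallest difference of 0.87 or 0.82. Leaving out replicate 1 of control at 6 h or at 24 h put a treatment 1.14 or 1.27 away from control.

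The other 9 probes of LOC101246812 give a fuller view of the gene, although all 10 were read in the same RNA and are not replicates. Of the 10, 9 were lower at 24 h in all 3 treatments. The difference reached 1 for 5 probes in control, 1 with MBI600 CFCF and 4 with flg22, with medians of 1.11, 0.56 and 0.88. Control had the largest difference in 7 of the 10. Of the 10, 8 were well above background on all 12 arrays, and their differences ran from 0.15 to 2.10. The lowest difference of the 10, -0.05, came from A_96_P162536, which was well above background on 2 arrays. Several of the others were dim, where the offset understates a difference, so the sizes cannot be compared between these probes. The probe closest below the threshold of the whole rule, A_96_P073839, is of this gene, with 1.44, 1.00 (rounded up from below 1) and 1.20.

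**Figure D2:**
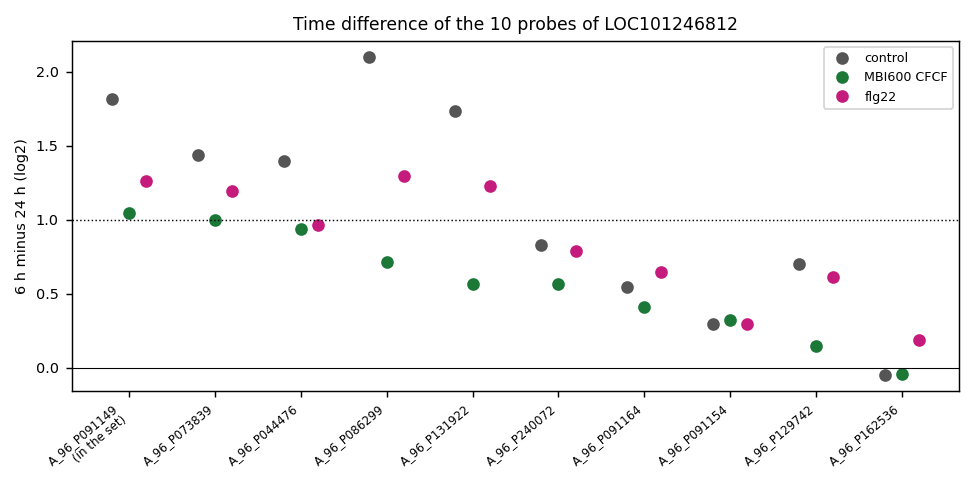
Difference of group means, 6 h minus 24 h (y axis, log2), for the 10 probes of LOC101246812 (x axis), with a point for each treatment and a dotted line at the threshold of 1. The probes are ordered by the smallest of their 3 differences; 9 lie above 0 in all treatments, and the probe in the set is at the left.

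Of the 6 probes with no gene name, A_96_P016316 (sequence BT012835) had the largest minimum of the 3 differences. It read 7.59 and 8.54 in control at 6 h against 6.49 and 6.16 at 24 h. With MBI600 CFCF it read 7.86 and 9.01 against 6.33 and 6.49, and with flg22 8.83 and 8.32 against 6.57 and 6.45. The times did not overlap, and the gap of 1.02 was the widest of the 8 probes. The differences were 1.74, 2.03 and 2.06 (SE 0.41), or 3.34-fold, 4.08-fold and 4.17-fold. Within slides they were 1.43, 2.53 and 2.26.

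This probe met the rule in each of the 12 fits without 1 array and in all 8 other settings of signal, scaling, channel and slide, which no other member did. It was dim at 24 h, where the offset weighs most. In the scanner's processed signal, which has no such offset, its differences were 3.52, 3.42 and 3.42. A further probe of the same sequence name, A_96_P103444, differed by 0.31, 0.66 and 0.34, but it was well above background on only 6 of the 12 arrays and read 5.85 to 6.02 at 24 h, so the size of its change is not known from these values.

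A_96_P251572 (sequence TC224338) was the most even of the 8. It read 9.11 and 9.47 in control at 6 h against 7.999 and 8.006 at 24 h. The MBI600 CFCF arrays gave 9.31 and 8.99 against 8.23 and 8.03, and with flg22 9.28 and 9.10 against 8.18 and 7.97. Its within-group SD of 0.17 was the lowest of the 8, and a gap of 0.76 separated the times. The differences were 1.28, 1.02 and 1.12 (SE 0.17), and 1.10, 0.95 and 1.11 within slides. It stood just inside the threshold and left the set without replicate 1 of MBI600 CFCF at 6 h (0.86) or replicate 2 at 24 h (0.92). It also left with 75th percentile scaling (0.91), in the ratio of green to red (0.86) and from pairs on the same slide (0.95).

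A_96_P053211 (sequence BG130993) also kept the times apart, with a gap of 0.63. It read 10.60 and 10.69 in control at 6 h against 9.31 and 9.86 at 24 h. With MBI600 CFCF it read 10.59 and 11.16 against 9.16 and 9.83, and with flg22 10.89 and 10.92 against 9.96 and 9.68. All 6 h arrays thus lay within 0.57 of each other. The differences were 1.06, 1.38 and 1.08 (SE 0.28), and 0.74, 1.33 and 0.93 within slides. Without replicate 1 of control at 24 h the control difference was 0.79, and without replicate 2 of flg22 at 24 h the flg22 difference was 0.95. It also left the set on the same slide and with slide as a term (0.86 in control and 0.94 with flg22). In the ratio of green to red it left as well (0.82 in control).

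These 4 probes, RNALE included, were those of the 8 whose 6 h arrays all exceeded all 24 h arrays; such a separation was found in 209 of all 43603 probes, or 0.479%. The rule used the same contrast, so nothing is read from this count.

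**Figure D3:**
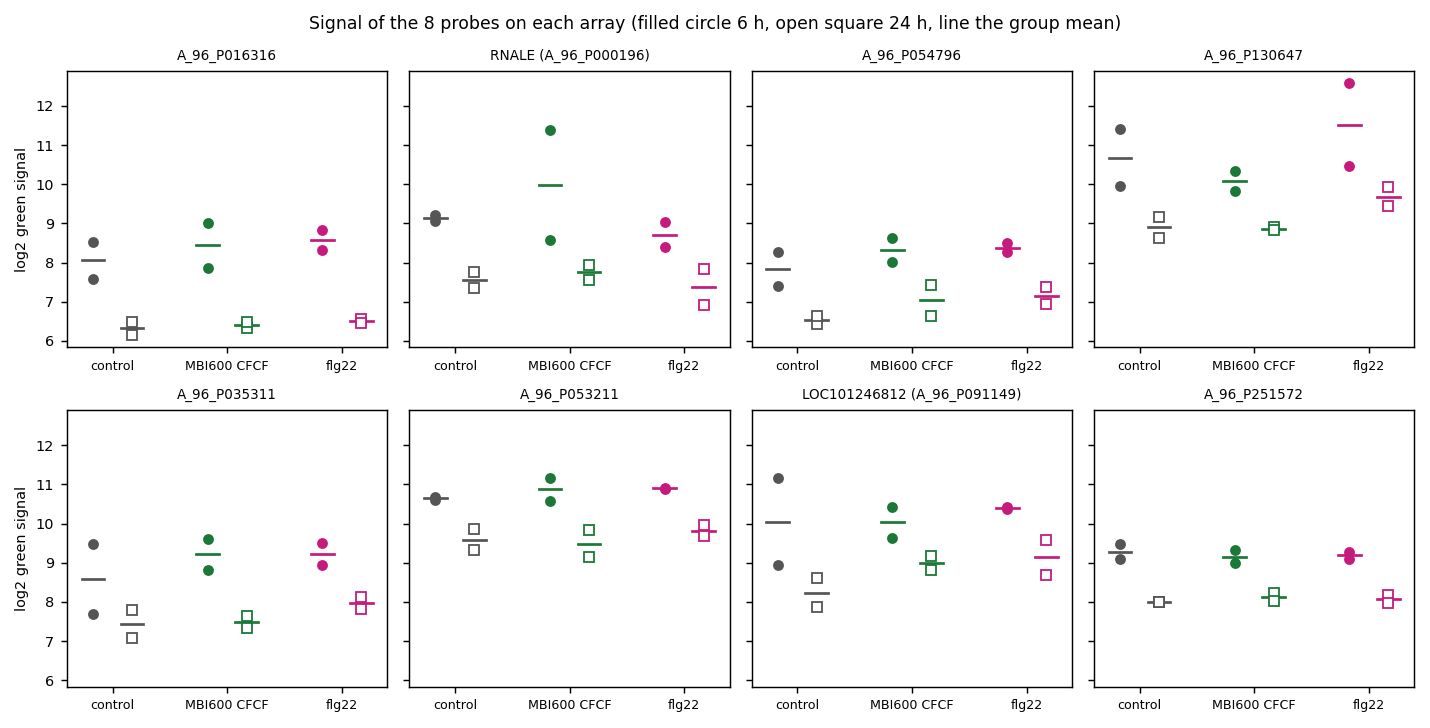
Log2 green signal (y axis) of the 8 probes on the 12 arrays, by treatment (x axis), with filled circles for 6 h, open squares for 24 h and a line for each group mean (n = 2). RNALE at 6 h of MBI600 CFCF, A_96_P035311 and LOC101246812 at 6 h of control, and A_96_P130647 at 6 h of flg22 show the widest replicate pairs.

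A_96_P130647 (sequence AI485590) read 9.95 and 11.42 in control at 6 h against 8.63 and 9.17 at 24 h. The MBI600 CFCF arrays gave 9.83 and 10.35 against 8.92 and 8.82, and with flg22 12.58 and 10.47 against 9.92 and 9.45. The times overlapped by 0.09 across treatments and did not overlap within a treatment. The differences were 1.78, 1.22 and 1.84 (SE 0.68), and within slides 0.77, 1.52 and 2.66. It was kept in only 5 of the 12 fits without 1 array, the fewest of the 8. Without replicate 1 of flg22 at 6 h the flg22 difference was 0.78, and without replicate 2 of MBI600 CFCF at 6 h its MBI600 CFCF difference was 0.96. The other 5 losses came from a treatment difference of 1.02 to 1.90 when replicate 1 or 2 of control at 6 h, replicate 2 of control at 24 h, or replicate 2 of flg22 at 6 h or 24 h was left out.

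A_96_P035311 (sequence BW691204) read 7.70 and 9.49 in control at 6 h against 7.79 and 7.08 at 24 h, which made it the member that overlapped within control. With MBI600 CFCF it read 8.82 and 9.62 against 7.33 and 7.63, and with flg22 8.94 and 9.50 against 8.12 and 7.82. The differences were 1.16, 1.74 and 1.25 (SE 0.55), and within slides 0.62, 1.99 and 0.82. The control difference rested on replicate 2 at 6 h and was 0.26 without it. It was 0.80 without replicate 2 at 24 h, the flg22 difference was 0.97 without replicate 2 at 6 h, and without replicate 1 of MBI600 CFCF at 6 h a treatment difference reached 1.02. With slide as a term, the differences were 0.89, 2.05 and 0.66.

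A_96_P054796 (sequence BW692890) had nearly equal differences in the 3 treatments, 1.30, 1.29 and 1.23 (SE 0.37). It read 8.27 and 7.41 in control at 6 h against 6.44 and 6.65 at 24 h. The MBI600 CFCF arrays gave 8.03 and 8.64 against 7.44 and 6.64, and with flg22 8.51 and 8.26 against 7.37 and 6.94. The times overlapped by 0.03, between the lower control array at 6 h and replicate 1 of MBI600 CFCF at 24 h. Within slides the differences were 1.63, 2.00 and 1.14. Leaving out replicate 1 of control at 6 h, or replicate 2 of MBI600 CFCF at 6 h or 24 h, gave a smallest difference of 0.86, 0.99 or 0.89. The scanner's processed signal gave 2.38, 1.97 and 1.78, although there the limit on treatment differences left it out of the set. It also left the set with 75th percentile scaling and in the ratio of green to red, where its MBI600 CFCF difference was 0.93 and 0.82.

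All 24 within-slide differences of the 8 probes were above 0, the smallest being 0.62. These pairs are among the arrays whose means the rule used, so their signs and sizes are descriptions and no separate check. They reached 1 in 5 probes in control, 7 with MBI600 CFCF and 5 with flg22, and in all 3 treatments in 3 probes (A_96_P016316, RNALE and A_96_P054796). Their medians were 1.08, 1.76 and 1.12, so for MBI600 CFCF, where the pair lies on slide 3, the median was higher than from the group means. Among the 6 h arrays, replicate 2 of control or of MBI600 CFCF, both on slide 3, was the highest for 7 of the 8 probes. Among the 24 h arrays, replicate 1 of flg22, on slide 1, was the highest for 5. No share over all probes is given for the counts in this paragraph, so nothing is read from them about the 8 probes. The part of the slide in these high values was not tested.

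**Figure D4:**
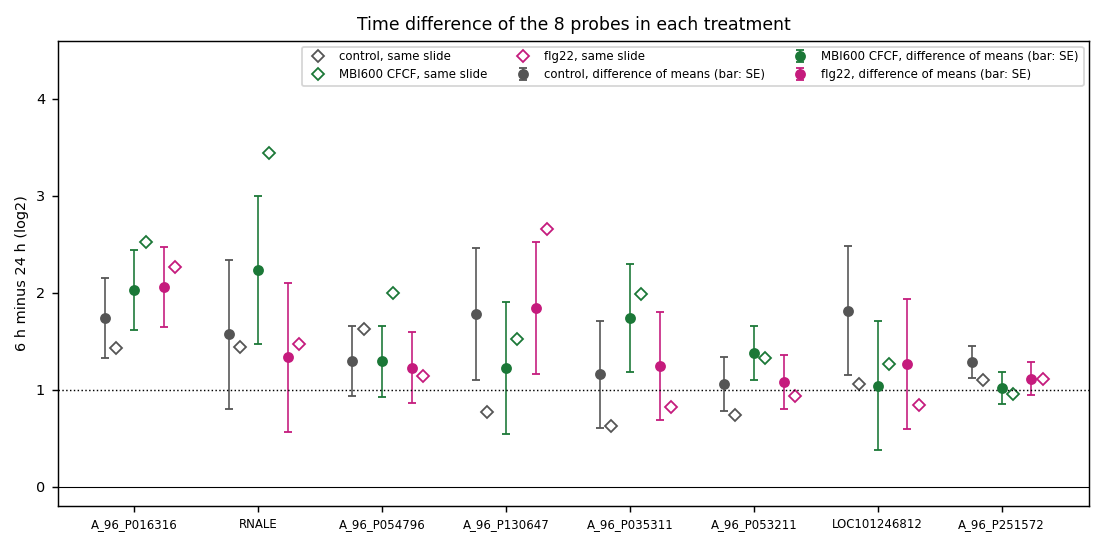
Difference between 6 h and 24 h (y axis, log2) for the 8 probes (x axis) in control, MBI600 CFCF and flg22. Filled circles are differences of group means with their SE from limma, open diamonds the difference of the pair of arrays on the same slide, and the dotted line the threshold of 1. All points lie above 0, and the rule selected on the means of these arrays.

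The limit on treatments was part of the rule, so small treatment effects were selected. The largest of the 32 treatment minus control differences was 0.90 in size (LOC101246812, flg22 at 24 h), and their median size was 0.36, against 0.13 over all probes. Equal differences in the 3 treatments were not required, and control had the largest difference in 3 probes, MBI600 CFCF in 3 and flg22 in 2. Set against the control's, the time difference of MBI600 CFCF differed by -0.77 to 0.66 and that of flg22 by -0.55 to 0.32, with SEs of 0.24 (A_96_P251572) to 1.08 (RNALE). For none of the 8 could differences between treatments of this size be resolved with 2 arrays a group.

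The red channel of the same spots was not used by the rule. Its log2 signal, 6 h minus 24 h, ranged from -0.12 (A_96_P054796) to 0.22 (LOC101246812) over the 8 probes. By limma with Benjamini-Hochberg adjustment, 0 of the 8 were called (smallest adjusted p 0.964, 0 with an unadjusted p under 0.05), against 0 of all 43603 probes, or 0%, and 245 with an unadjusted p under 0.05. Those 245 were fewer than the share of 0.05 that no difference would give on average, and with slide as a term there were 859. The 0 calls thus do not show that the red signal was stable. Across probes, the red signals of the 12 arrays correlated at 0.956 to 0.999, but before normalization their median log2 level was 5.81 to 6.00 on slide 3 and 7.22 to 7.56 on slides 1 and 2. What a red signal stands for here is unknown, so these values describe the spots only. As a log2 ratio of green to red, 8 probes met the rule, and only 3 of them were members: A_96_P016316, RNALE and A_96_P035311.

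Probes stood close to the threshold on both of its sides. Just inside it stood A_96_P251572 (smallest difference 1.02), LOC101246812 (1.04) and A_96_P053211 (1.06). Just outside it stood a second LOC101246812 probe (1.00), A_96_P008046 of the gene yfe37 (0.99) and A_96_P076019 (0.98). The reference gene ubi3, which encodes a ubiquitin fusion protein and served for normalization in the study's RT-qPCR, differed by -0.53 in control and by 0.03 and 0.05 with MBI600 CFCF and flg22. The values of MBI600 CFCF and flg22 took the other sign in the processed signal (-0.15 and -0.02), the 75th percentile scaling and the ratio of green to red. In that ratio the control value was smaller in size, at -0.12, beside -0.18 and -0.10 with MBI600 CFCF and flg22.

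Only the 2 members with a RefSeq gene could be matched to gene lists by name, and neither is in any of 18 lists on light, hormones, defence, cell wall, carbon and nitrogen, water channels, heat shock and markers of organs, which matched 314 genes with 792 probes (1.82% of all). The clock genes listed beside them could not be matched to any probe by name, so the circadian clock was not analysed here. The lists were not without time differences. In the jasmonate and wounding list, 5 of 60 probes were at least 1 lower at 24 h in all 3 treatments, and these were 4 of TD2 (threonine deaminase, a jasmonate-induced defence enzyme) and 1 of LAPA1 (the wound-induced leucine aminopeptidase A). The limit on treatment differences left them out of the 8. In the list of light harvesting and photosynthesis, 0 of 88 were that much lower and 10 were that much higher in all 3, with medians of -0.66, -0.20 and -0.54. In the sugar and starch list, 1 of 57 was lower in all 3, a probe of the hexose transporter HT2.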

How the data were processed

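RNA from whole tomato seedlings was measured on 12 two-colour Agilent arrays. The scanner files, made with Agilent Feature Extraction 10.7.3.1, hold intensity values per spot, deposited without normalization between arrays, as medians of spot and local background and as a background-subtracted, dye-normalized signal. The authors' deposited table is on the log2 scale and was made from the medians of the green channel by normexp with an offset of 50, followed by quantile scaling. A table computed anew from the scans differed from it by at most 5e-09. This table was the source of the values reported. Control spots were left out and 43803 spots were averaged to 43603 probes. Between 69.8% and 81.7% of spots were well above background on each array, and the number of arrays limits the precision.

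A mean per group was fitted over all 12 arrays and all probes with limma 3.58.1 (R 4.3.3), which gave the standard errors and the test of the red channel, with Benjamini-Hochberg adjustment and a threshold of 0.1. The standard errors and p-values measure the spread between 2 pools a group. The steps were tested on simulated data. The genes named were the members, the 3 probes on either side of the threshold, further probes of the members' genes, genes of the same family and ubi3. The family genes and the further probes were chosen after seeing the data. RefSeq names (assembly SLM_r2.1, used for names and neighbours only) matched 4884 probes to 2232 of 41476 genes. The members and lists were chosen with earlier results of these data known, and the patterns that matched names to the lists were written after the files were opened. Promoters and probe sequences were not used here. The alternatives were other signals, backgrounds and scalings, the ratio of green to red, slide or replicate number as a term, pairs on the same slide, each array left out, and other thresholds and filters.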

Additional observations from a re-analysis of the deposited data

How the results depend on the processing

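Of 504 differences of single members under the alternatives, 240 equalled the reported value. This must be so where the array left out is of another treatment, and for the replicate block, since every group holds both replicate numbers. It was also so for outlier spots left out. The other 264 were all above 0, and 40 moved by more than the spread between replicates. The members were selected for differences of at least 1 on these same arrays, so the signs are no separate support. The number of probes meeting the rule was 8, and became 39 with the scanner's processed signal (7 of the 8 among them), 16 with no background correction and 17 at an offset of 16 (8 each), 51 at a threshold of 0.75 or with no limit on treatments, 1 at a threshold of 1.5, and 6 to 24 when 1 array was left out. The 24 came without replicate 1 of control at 6 h and held 5 of the 8; without replicate 1 of flg22 at 24 h there were 17, with 7 of the 8. With slide as a term 9 probes met the rule, 4 of them members, and from pairs on the same slide 12 did, 3 of them members. In the ratio of green to red 8 did, 3 of them members, so similar counts were not the same probes. The median difference was 1.94, 1.70 and 1.60 in control, MBI600 CFCF and flg22 with the processed signal, and 1.08 in control and 1.76 with MBI600 CFCF on the same slide. It ran from 1.07 to 1.78 in control when 1 array was left out. With 75th percentile scaling in place of quantile, 6 of the 8 met the rule, without A_96_P054796 and A_96_P251572. It put the median difference of all probes at 0.22, -0.58 and -0.06, and the processed signal so scaled put it at 0.09, -0.17 and 0.005, against 0.00, 0.00 and -0.01 as reported, so differences of members there are relative to these medians. Whether the replicate numbers pair samples cannot be told, because the replicates of a group also lay on different slides. The correlations of replicate deviations between groups ran from -0.51 to 0.66 over 15 pairs of groups, and 9 were positive. Between groups with replicate 2 on slide 3 they were 0.21 to 0.44. Control and flg22 at 24 h, both on slides 1 and 2, gave 0.66. With the number as a replicate block the 8 probes could not change, since every group holds both numbers. In the red channel 0 members and 0 of all probes were called with this block. The same held with the numbers of control and flg22 at 24 h crossed (0 and 0), an alternative chosen after seeing the data. With 2 arrays a group, differences of the order of the standard errors could not be resolved.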

Other observations

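The 43 probes that were at least 1 lower at 24 h in all 3 treatments but differed by 1 or more between a treatment and control were mostly set apart by flg22. The largest treatment difference was that of flg22 at 6 h for 28, of flg22 at 24 h for 12, of MBI600 CFCF at 6 h for 2 and at 24 h for 1, and it was a rise in 42 and a fall in 1. They held 4 of the 7 probes of TD2 on the array, with control differences between 6 h and 24 h of 1.08 to 1.99 and rises over control at 6 h of flg22 of 5.04 to 5.74 on the log2 scale. LAPA1 differed between the times by 1.80 in control and by 4.53 with flg22. The genes gad2 (glutamate decarboxylase, which makes GABA), with 4 of 10 probes, and TSW12 (a lipid transfer protein), with 2 of 2, had smaller flg22 differences, at most 1.68 and 1.45 among those probes. AADC1A (an aromatic amino acid decarboxylase), with 2 of 3 probes, was 2.26 and 2.43 above control at 6 h of flg22. Comparisons with the control share its arrays, and these probes were selected on the same values, so no test is given.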
